A study of Mus musculus with 22 samples.

Results

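The sestrin genes Sesn1, Sesn2 and Sesn3, the paralogs Ddit4 and Ddit4l, and the eIF4E-binding protein (4E-BP) genes Eif4ebp1, Eif4ebp2 and Eif4ebp3 encode brakes on the growth kinase complex mTORC1 or on the translation that it drives. These 8 genes were chosen by name, with earlier results of these data known. Each matched 1 of the 38924 Ensembl gene IDs in the gene tables of 22 spinal cord libraries. The libraries came from mice aged 7 months on a background labelled B6N;B6J. Genotypes were wild type (WT, 6 libraries), E196K/+ (HET, 6 libraries) and E196K/E196K (HOM, 10 libraries), where E196K is a change in Yars, the gene of cytosolic tyrosyl-tRNA synthetase, carried by the whole animal. The labels record no sex and do not say that each library came from its own mouse, so a p-value here speaks only of the spread among these libraries, which may be technical.

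The kinase complex mTORC1 promotes protein synthesis when amino acids and growth factors are plentiful. Sestrins restrain it by holding back GATOR2, and Sesn2 releases GATOR2 on binding leucine. The Ddit4 proteins (also called REDD1 and REDD2) restrain it through the TSC complex, which switches off the GTPase Rheb. The 4E-BPs are substrates of mTORC1: unphosphorylated, they hold the cap-binding protein eIF4E and keep it from eIF4G. Sesn2, Ddit4 and Eif4ebp1 are known to be induced by ATF4 when the integrated stress response is active, while Sesn1 is known as a target of p53 and Sesn3 of FoxO factors. Human carriers of the E196K change develop a dominant form of Charcot-Marie-Tooth neuropathy.

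Expected counts summed to between 24.45 M and 42.81 M per library. Yars itself, whose level a protein change need not alter, was at 113 CPM (counts scaled to a common library total) in WT (SD 3.77, n = 6), 115 in HET (SD 4.38, n = 6) and 121 in HOM (SD 6.02, n = 10). Its log2 fold change in HOM against WT was 0.10 (SE 0.0332, edgeR unadjusted p = 0.00639, adjusted p = 0.643 over all genes tested). Markers of neurons, astrocytes, oligodendrocytes and microglia were present in every library. Sample titles carry 1 of 3 leading numbers (title prefixes), 39992, 40411 and 40412, of unstated meaning. The library HOM 3 stood apart. Its 6 Schwann cell markers summed to 3450 CPM against at most 145 in any other library, its 6 fibroblast markers to 521 against at most 115, and its 6 blood markers to 1960 against at most 961, while its oligodendrocyte markers summed to 15500 CPM against 20000 to 22700 in WT. Sesn2, Sesn1 and Eif4ebp1 differences between HOM and WT are therefore given with and without it. In whole tissue, fewer cells of a type and less RNA per cell cannot be told apart.

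Compared as TPM, which scales abundance per transcript length and library, over all 22 libraries, Ddit4 (mean 42.7 TPM, SD 9.49) and Sesn3 (42.4, SD 4.76) were highest and could not be ordered, each leading in 11 libraries. Sesn1 (27.2 TPM, SD 3.63) and Eif4ebp2 (25.9, SD 2.28) came next and likewise each led in 11. Ddit4l (13.1 TPM, SD 1.9) exceeded Sesn2 (11.8, SD 1.56) in 16 of 22 libraries. Eif4ebp1 (3.23 TPM, SD 1.03) and Eif4ebp3 (0.939, SD 0.561) were lowest, in that order in 22 of 22 libraries. All 8 genes passed the filter on low counts.

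**Figure D1:**
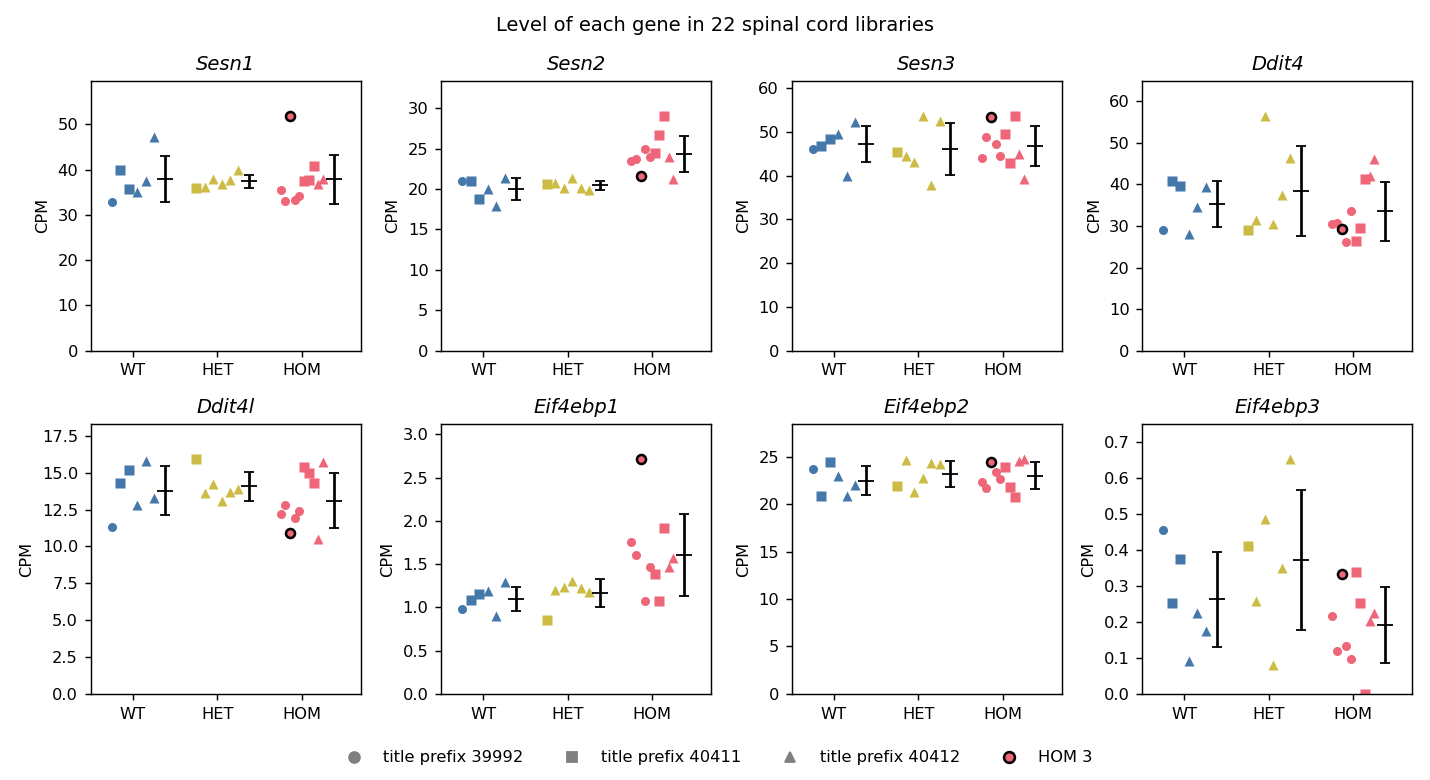
Level of each gene in CPM (vertical axis, from 0) by genotype, 1 point per library, with the shape giving the leading number of the library title and a black outline marking HOM 3. Bars give the mean and SD; for Sesn2, 9 of 10 HOM libraries lie above the highest WT value of 21.4 CPM.

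Of the 8 genes, Sesn2 alone passed the test across all genes in homozygous against wild type cords. Sesn2, the leucine sensor among the sestrins, had CPM values of 17.9 (lowest), 20.5 (median) and 21.4 (highest) in the 6 WT libraries. In the 6 HET libraries its lowest, median and highest values were 19.9, 20.4 and 21.4 CPM. In the 10 HOM libraries they were 21.2, 24.0 and 29.0 CPM. HET values thus lay inside or level with the upper part of the WT range, whereas 9 of 10 HOM libraries exceeded every WT and every HET library; HOM 10, at 21.2 CPM, did not. Sesn2 rose 1.21-fold in HOM against WT (log2 fold change 0.28, SE 0.0545, edgeR quasi-likelihood adjusted p = 0.0285), which placed it 16th by p-value among 16974 genes. Without HOM 3 the log2 fold change was 0.30 (SE 0.0527, adjusted p = 0.00804). Called genes made up 0.0943% of all genes tested in that comparison, against 1 of these 8. Because the 8 were chosen with earlier results of these data known, that contrast is a description and not a test. By sign, 3 of the 8 were higher and 5 lower (median log2 fold change -0.01), beside a median of 0.01 and 53.7% higher over all genes tested.

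In HET against WT the Sesn2 log2 fold change was 0.03 (SE 0.0609, edgeR adjusted p = 1), and called genes made up 0% of those tested, with 578 genes at an unadjusted p under 0.05 and 0 called by DESeq2 or limma voom. In HOM against HET it was 0.25 (SE 0.0545, edgeR adjusted p = 0.0687), a miss in a comparison where 0.106% of genes were called. Leaving out HOM 3 gave 0.27 (adjusted p = 0.0315), leaving out HOM 10 gave 0.27 (adjusted p = 0.027), and DESeq2 called it with all libraries (0.25, adjusted p = 0.00928). Every other setting left it uncalled, among them the prefix of the sample title as a covariate (0.22, adjusted p = 0.608), limma-trend on log2(TPM + 1) (0.22, adjusted p = 0.339) and the fit without HET 6 (0.24, adjusted p = 0.219). Taken as a trend over the number of E196K alleles, Sesn2 was called at 0.15 per allele (SE 0.0284, edgeR adjusted p = 0.0227; 0.1% of genes called), and none of the other 7 genes was. That call was lost with the title prefix as a covariate, with prefixes 40411 and 40412 alone, under limma-trend on TPM, and on leaving out HOM 1, 4, 5, 6 or 7 or WT 3 or 5. Fitted against the midpoint of WT and HOM, the HET difference was -0.11 (SE 0.0511, unadjusted p = 0.0478, edgeR adjusted p = 0.847), a miss that does not show a stepwise rise. In that contrast 0.00589% of genes were called.

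The Sesn2 call was near its threshold. It was lost on leaving out WT 1, 3, 4 or 5 or HOM 1, 4, 5, 6 or 7 (highest adjusted p = 0.153, without WT 5), with the 2 genotypes alone (adjusted p = 0.149), with title prefixes 40411 and 40412 alone (adjusted p = 0.115) and under limma-trend on log2 TPM, which changes both the values and the fit (adjusted p = 0.0898 with 1 added and 0.0835 with 0.1 added). Of the fits with 1 library left out, the adjusted p was smallest on leaving out HOM 3 (adjusted p = 0.00804) or HOM 10 (adjusted p = 0.0103). The size of the difference moved less, from 0.25 to 0.30 over the 22 fits that left out 1 library. Within the title prefixes the Sesn2 difference in mean log2 CPM between HOM and WT was 0.16 in 39992 (5 against 1 library), 0.43 in 40411 (3 against 2) and 0.19 in 40412 (2 against 3). With the prefix as a covariate Sesn2 was still called in HOM against WT (0.28, adjusted p = 0.0493).

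**Figure D2:**
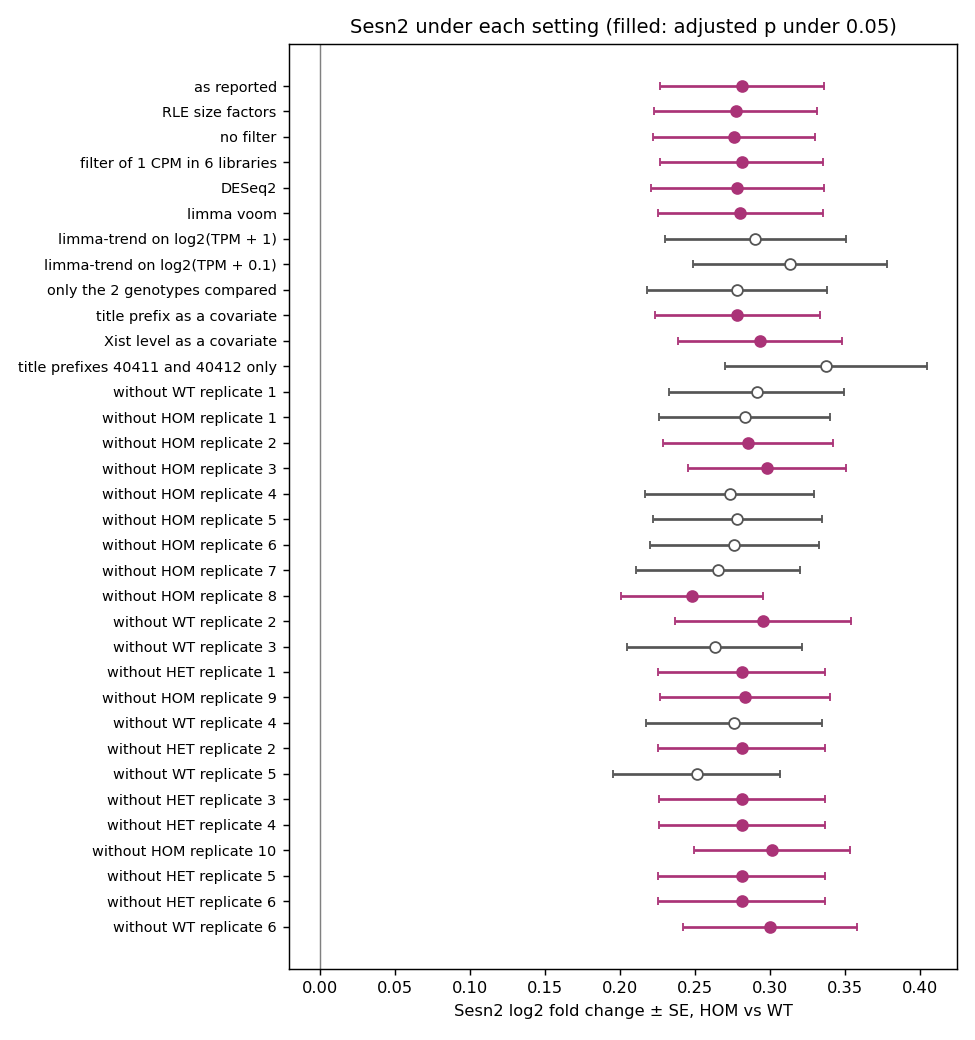
Sesn2 log2 fold change in HOM against WT with its SE (horizontal axis) under each setting (vertical axis), filled where the adjusted p was under 0.05. Values lie between 0.25 and 0.34 throughout, while the call comes and goes.

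Sesn1 and Sesn3, the other two sestrins, did not pass in any comparison. Sesn1, a sestrin induced by p53, had lowest, median and highest values of 32.8, 36.6 and 47.2 CPM in WT, 35.9, 37.2 and 39.9 in HET, and 33.1, 37.1 and 51.8 in HOM. The groups overlapped fully, and the top value belonged to HOM 3, whose nearest neighbour in the group was at 40.8 CPM. The Sesn1 log2 fold change in HOM against WT was -0.01 with HOM 3 (SE 0.0803) and -0.07 without it (SE 0.0588; edgeR adjusted p = 0.992 and 0.84). Sesn3, a sestrin induced by FoxO factors, had 40.0, 47.7 and 52.3 CPM in WT, 37.9, 45.0 and 53.6 in HET, and 39.2, 46.1 and 53.6 in HOM. Its log2 fold change in HOM against WT was -0.01 (SE 0.0728, edgeR adjusted p = 0.981), and its sign, like that of Sesn1, turned under limma-trend on TPM, in a covariate fit and with single libraries left out.

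Within the sestrin family Sesn3 supplied 52.1% of the summed TPM over all libraries (SD 2.43), Sesn1 33.4% (SD 2.57) and Sesn2 14.6% (SD 1.67). The Sesn2 share was 13.3% in WT (SD 0.832, n = 6), 13.8% in HET (SD 0.923, n = 6) and 15.8% in HOM (SD 1.57, n = 10). In HOM, 9 of 10 libraries lay above the highest WT share, and HOM 3 held the lowest share of its group, 11.9%. The HOM share was 2.53 percentage points above WT (exact permutation test, two-sided, p = 0.005, adjusted p = 0.0839 over 18 share tests) and 1.98 points above HET (exact permutation p = 0.0187, adjusted p = 0.0843). Without HOM 3 the Sesn2 share was 2.97 points above WT and 2.42 above HET, each with an unadjusted exact permutation p of 0.0004, the smallest these groups can give. Leaving out the HOM library with the lowest share was bound to widen these differences, so that p adds no separate support. Summed over the 3 genes, sestrin transcripts were at 79.3 TPM in WT (SD 7.98), 80.4 in HET (SD 6.57) and 83.2 in HOM (SD 9.15), a difference smaller than the SD of any group.

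**Figure D3:**
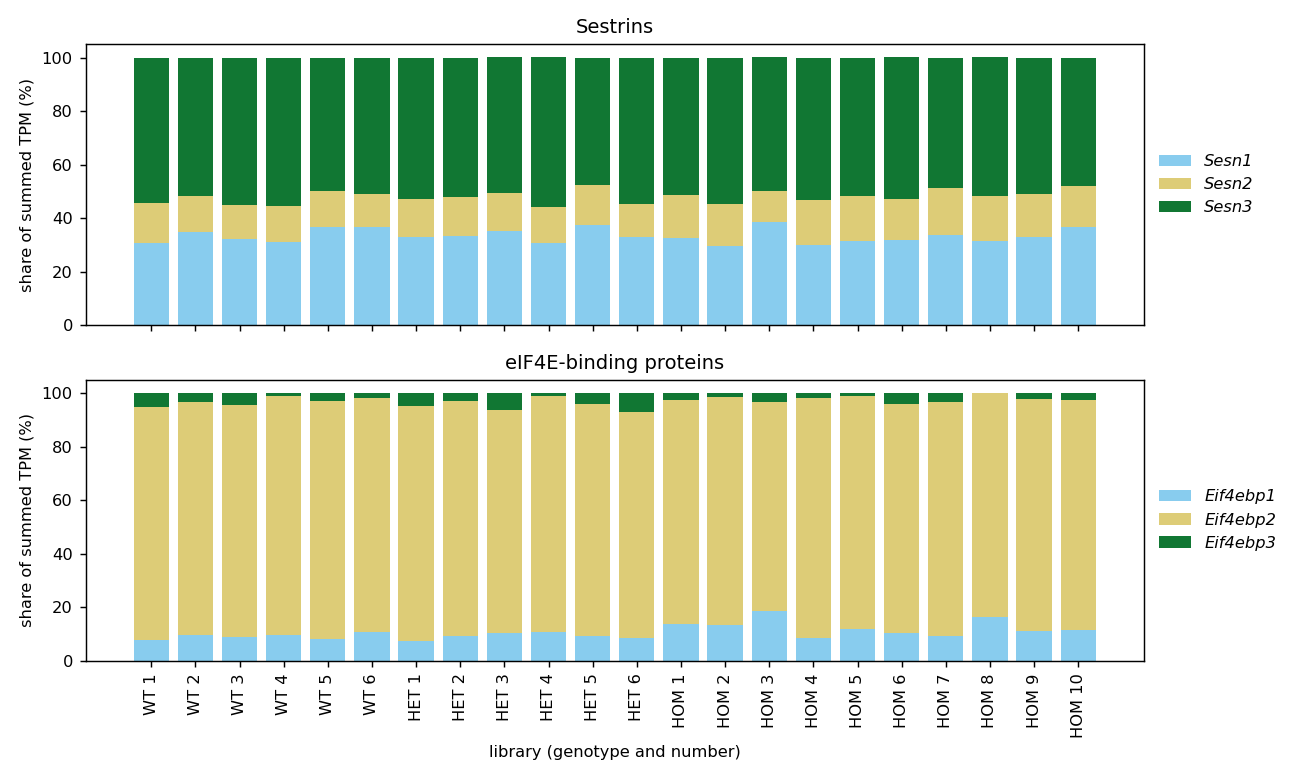
Share of each paralog in its family's summed TPM (vertical axis, percent) in each of the 22 libraries (horizontal axis), with sestrins above and 4E-BPs below. Sesn3 makes up 47.7% to 56.1% of sestrin transcripts, and Eif4ebp2 makes up 78.1% to 89.7% of 4E-BP transcripts.

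Promoter windows of 300 bases (250 before the RefSeq start and 50 after it, GRCm38.p6) were available for 6 of the 8 genes. They are shown for the 3 sestrins, of which Sesn2 alone passed the test, and for Ddit4, the most variable of the abundant members. Each runs 5′ to 3′ along the gene. Capitals mark every match, on either strand, to the letters searched: the C/EBP-ATF element TGATGNAA bound by ATF4, the cyclic AMP element TGACGTCA, the FoxO element GTAAACA, the glucocorticoid response element, the hypoxia core ACGTG and the CCAAT box, the last of which was added after the sequences had been seen.
Sesn2, chr4:132510407-132510706, minus strand: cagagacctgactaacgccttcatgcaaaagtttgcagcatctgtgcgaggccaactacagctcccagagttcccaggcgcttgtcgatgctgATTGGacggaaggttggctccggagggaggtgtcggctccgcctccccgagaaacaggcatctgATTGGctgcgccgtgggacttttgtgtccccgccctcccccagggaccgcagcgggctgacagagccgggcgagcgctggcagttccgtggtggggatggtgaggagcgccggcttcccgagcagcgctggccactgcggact
Sesn1, upstream start, chr10:41810324-41810623, plus strand: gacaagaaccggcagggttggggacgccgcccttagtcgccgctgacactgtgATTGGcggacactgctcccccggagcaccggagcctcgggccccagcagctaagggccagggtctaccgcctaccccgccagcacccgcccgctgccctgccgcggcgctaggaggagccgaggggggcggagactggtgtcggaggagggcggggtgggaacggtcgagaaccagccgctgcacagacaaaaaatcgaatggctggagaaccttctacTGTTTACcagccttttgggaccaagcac
Sesn3, chr9:14276051-14276350, plus strand: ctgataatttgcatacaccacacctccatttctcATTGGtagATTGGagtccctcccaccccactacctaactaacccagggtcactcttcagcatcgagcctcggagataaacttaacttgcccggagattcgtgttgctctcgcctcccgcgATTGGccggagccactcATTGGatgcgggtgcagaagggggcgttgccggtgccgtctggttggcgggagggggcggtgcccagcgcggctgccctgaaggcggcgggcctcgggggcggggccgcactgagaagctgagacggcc
Ddit4, chr10:59951721-59952020, minus strand: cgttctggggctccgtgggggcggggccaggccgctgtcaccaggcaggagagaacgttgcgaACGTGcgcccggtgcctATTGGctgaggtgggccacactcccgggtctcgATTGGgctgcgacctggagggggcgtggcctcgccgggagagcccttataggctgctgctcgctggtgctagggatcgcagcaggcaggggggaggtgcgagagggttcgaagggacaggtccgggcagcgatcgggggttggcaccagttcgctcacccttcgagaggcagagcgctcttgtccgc

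No window of these 6 genes held the letters TGATGNAA or TGACGTCA or a glucocorticoid response element, which occur in 3.97%, 1.79% and 0.475% of all 32851 promoter windows of that length; a window this short says nothing of elements elsewhere in the gene. The upstream Sesn1 start held 1 FoxO match, 22 bases past the start (3.65% of windows hold one). Ddit4 held 1 hypoxia core, 187 bases before its start, and Eif4ebp2 1 at 182 bases before (19.6% of windows). CCAAT boxes, all on the strand opposite the gene, numbered 2 in Sesn2 (157 and 93 bases before the start), 2 in Ddit4 (170 and 137), 4 in Sesn3 and 1 at each Sesn1 start, against 0 in Ddit4l and Eif4ebp2. At least 1 such box occurs in 37.4% of windows and at least 3 in 3.37%. The box was present both in the sestrin that rose and in those that did not pass, and its part in their levels was not tested.

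Ddit4 and Ddit4l did not pass in any comparison. Ddit4, which is induced by glucocorticoids, hypoxia and ATF4, had lowest, median and highest values of 28.1, 37.0 and 40.8 CPM in WT, 29.0, 34.4 and 56.4 in HET, and 26.2, 30.6 and 46.0 in HOM. It spread 2.16-fold from the lowest to the highest library, the widest range among the 6 members above 10 CPM, and all groups overlapped. The highest library was HET 3. In HOM against WT its log2 fold change was -0.07 (SE 0.155, edgeR adjusted p = 0.929). Against HET, the HOM value was -0.20 (SE 0.155, adjusted p = 0.738), and that of HET over WT was 0.12 (SE 0.174, adjusted p = 1). Within title prefixes the HOM and WT difference in mean log2 CPM was 0.04, -0.34 and 0.38, so its sign was not shared, and with the prefix as a covariate the fitted value was 0.04. Libraries of prefix 40412 held the highest mean, 39.2 CPM (28.1 to 56.4), against 34.4 in 40411 and 29.9 in 39992.

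Ddit4l, the paralog known from skeletal muscle, had 11.3, 13.8 and 15.8 CPM in WT, 13.1, 13.8 and 15.9 in HET, and 10.5, 12.6 and 15.7 in HOM. Its log2 fold change in HOM against WT was -0.07 (SE 0.0841, edgeR adjusted p = 0.867). By title prefix the 6 libraries of 39992, of which 5 are HOM, ran from 10.9 to 12.8 CPM. The 6 of 40411 ran from 14.3 to 15.9 CPM, with no overlap with 39992. The 10 of 40412 ran from 10.5 to 15.8 CPM and overlapped each of those ranges. How many of all genes part by prefix in this way was not tested. With the prefix as a covariate the HOM and WT difference in Ddit4l was -0.01. The effective length that RSEM assigned to Ddit4l varied between libraries from 1444 to 2209 bases, so its TPM also depends on the mix of transcripts that RSEM estimated.

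The 4E-BPs were dominated by Eif4ebp2, the form that prevails in brain, which supplied 86.2% of their summed TPM (SD 2.54, n = 22). Eif4ebp2 had lowest, median and highest values of 20.8, 22.5 and 24.4 CPM in WT, 21.3, 23.5 and 24.6 in HET, and 20.7, 23.0 and 24.7 in HOM. It was the steadiest of the 8 genes, with a coefficient of variation of 6.05% over all libraries, and its log2 fold change in HOM against WT was 0.04 (SE 0.0468, edgeR adjusted p = 0.879). The groups overlapped throughout.

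Eif4ebp1, the 4E-BP known as an ATF4 target, had few reads: 220 summed counts in WT, 222 in HET and 532 in HOM. Its lowest, median and highest values were 0.906, 1.12 and 1.29 CPM in WT, 0.85, 1.21 and 1.31 in HET, and 1.07, 1.52 and 2.71 in HOM. HET and WT covered the same range, and 8 of 10 HOM libraries lay above the highest WT value and 8 of 10 above the highest HET value. The log2 fold change in HOM against WT was 0.55 (SE 0.163), the second smallest p of the 8 genes, but it missed the threshold over all genes (unadjusted p = 0.00265, edgeR adjusted p = 0.588). In HOM against HET it was 0.46 (SE 0.163, edgeR adjusted p = 0.394), and 0.35 without HOM 3 (SE 0.133, edgeR adjusted p = 0.424). The highest value, 2.71 CPM, came from HOM 3, and without that library the HOM and WT difference was 0.43 (SE 0.134, adjusted p = 0.476). The part of the Schwann cell, fibroblast and blood transcripts of HOM 3 in this value was not tested. Within the title prefixes the difference was 0.75, 0.35 and 0.44. As a share of 4E-BP transcripts Eif4ebp1 was 9.13% in WT (SD 1.17), 9.2% in HET (SD 1.28) and 12.5% in HOM (SD 3.08), 3.35 points higher in HOM than in WT (exact permutation test, two-sided, p = 0.011, adjusted p = 0.0839) and 2.69 points higher without HOM 3.

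Eif4ebp3 was near the limit of detection. Its lowest, median and highest values were 0.0919, 0.24 and 0.457 CPM in WT, 0.0804, 0.38 and 0.652 in HET, and 0, 0.21 and 0.338 in HOM, and the groups overlapped. HOM 8 had an expected count of 0, where 3 counts would be 0.077 CPM; reads assigned to another gene are not covered by that limit. In HOM against WT the log2 fold change was -0.47 (SE 0.433, edgeR adjusted p = 0.833), with -0.92 in HOM against HET (SE 0.417, unadjusted p = 0.0374, edgeR adjusted p = 0.533). Its counts were fractional in 21 of 22 libraries, where those of the other 7 genes were whole in every library, so RSEM divided its reads with another annotated gene. Which gene that was is not shown by the tables.

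**Figure D4:**
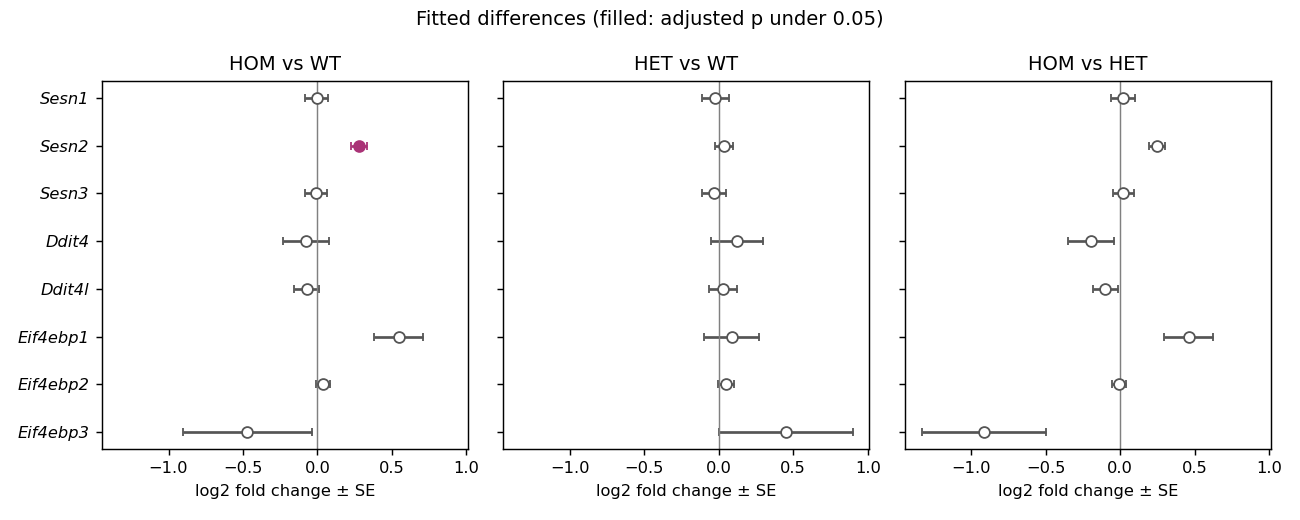
Fitted log2 fold change with its SE (horizontal axis) of the 8 genes (vertical axis) in the 3 genotype comparisons, filled where the adjusted p was under 0.05. Sesn2 in HOM against WT is the single filled point; Eif4ebp1 lies further from 0 (0.55) with a wider SE (0.163 against 0.0545).

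The genes whose levels followed each member most closely over the 22 libraries differed from member to member. They are given as a description, by Pearson's r of log2 CPM among 12004 genes. Sesn2 was most like Aars (r = 0.84), which charges alanine tRNA, Yars (0.82) and Pck2 (0.81), a mitochondrial gluconeogenic enzyme. With genotype means subtracted these were 0.63, 0.69 and 0.51, so part of the likeness lay between genotypes and part within them. Ddit4 was most like Arl4d (0.88), a small GTPase, Sgk1 (0.85), a kinase induced by glucocorticoids, and Polr3e (0.84), a subunit of RNA polymerase III, and these values were 0.83 to 0.88 with genotype means subtracted. Sgk1 ran from 50.1 to 257 CPM over the libraries.

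Sesn1 was most like Txnip (r = 0.90), which restrains thioredoxin and glucose uptake, Apod (0.88), a lipid carrier, and Smco3 (0.87), and without HOM 3 these were 0.81, 0.78 and 0.75. Sesn3 was most like Htt (0.83), Fryl (0.82) and Herc2 (0.82), which have long transcripts: their mean effective lengths were 11400, 7540 and 15100 bases against a median of 2480 over the genes searched. Eif4ebp1 was most like Ramp2, Slc9a9 and Ly6e (0.79 each), with 0.63, 0.71 and 0.61 without HOM 3. Eif4ebp2 was most like the kinase Dyrk1b (0.85), Mvb12b (0.78) and Sufu (0.77), and Ddit4l like the cadherin Cdh8 (0.82), Trim59 (0.78) and the lactate carrier Slc16a1 (0.78). For the sparse Eif4ebp3 the highest value was 0.69, with Zfp235.

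The machinery on which these brakes act showed no called gene in HOM against WT. Over all genes tested 0.0943% were called and 53.7% were higher. At that share, an absence of calls in lists this small says little about them. Of 7 genes of mTORC1 itself and Rheb, 5 were higher, 2 lower and none passed (median log2 fold change 0.05, against 0.01 over all genes tested); Akt1s1, the inhibitory subunit PRAS40, had the smallest p, at 0.05 (SE 0.0348, edgeR adjusted p = 0.817). Of 11 tested genes of GATOR1, GATOR2 and KICSTOR, through which sestrins act, 6 were higher and none passed (median 0.02), with the KICSTOR subunit Itfg2 at 0.09 (SE 0.0366). Of 8 genes of the TSC complex and Ddit4 partners 6 were higher and none passed (median 0.01), with the 14-3-3 protein gene Ywhae at -0.06 (SE 0.0301). Of 13 genes of the Rag GTPases and their lysosomal anchor 9 were lower and none passed (median -0.03), with Rragd at -0.06 (SE 0.038). Of 5 genes of other amino acid sensors 3 were lower and none passed (median -0.03), with Sar1b, a leucine sensor, at -0.09 (SE 0.0374).

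Genes downstream of the brakes were next, to be read beside the same 0.0943% called over all genes tested. Of 12 genes of cap binding and eIF4F, the targets of the 4E-BPs, 7 were lower and none passed (median -0.02), with the cap-binding homolog Eif4e2 at -0.05 (SE 0.027). Of 7 genes of the S6 kinase arm 4 were higher and none passed (median 0.00), with Eef2k, the kinase that slows elongation, at 0.10 (SE 0.033, edgeR adjusted p = 0.646). Of 9 genes of autophagy start 6 were higher and none passed (median 0.03), with Tfe3, a lysosomal transcription factor, at 0.10 (SE 0.0274, edgeR adjusted p = 0.518). Of 9 AMPK genes 5 were lower and none passed (median -0.01), with the catalytic subunit Prkaa2 at -0.14 (SE 0.0485), and of 12 genes of growth factor input 7 were lower and none passed (median -0.01), with Akt1 at 0.07 (SE 0.0296).

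Lists of the factors known to induce the 8 genes followed. Like the 8 genes, these lists were chosen with earlier results of these data known, so their counts are a description and not a test. Atf4, itself on a list of 8 upstream regulators, was the 1 called there in HOM against WT (0.23, SE 0.0383, edgeR adjusted p = 0.00461), and of 21 of its targets outside these families 20 were higher and 4 were called, all higher (median 0.20), beside 53.7% higher and 0.0943% called over all genes tested. The 4 were Fgf21, Gdf15, Chac1, which degrades glutathione (0.55, SE 0.0757), and Aldh18a1, of proline synthesis (0.25, SE 0.0454). Sesn2, at 0.28, lay above the median of that list, while Ddit4, at -0.07, did not. Eif4ebp1 also lay above it (0.55, and 0.43 without HOM 3) but was not called (edgeR adjusted p = 0.588). A part of ATF4 in the values of these 3 genes was not tested. Of 12 p53 targets 6 were higher and none passed (median 0.00), with Phlda3 at 0.12 (SE 0.0481). Of 10 tested FoxO targets 5 were higher and none passed (median -0.03), with Cat, the gene of catalase, at -0.05. Of 12 glucocorticoid targets 10 were higher and none passed (median 0.04), with Pdk4 at -0.22 (SE 0.142), and of 11 tested hypoxia targets 8 were higher and none passed (median 0.03), with Pdk1 at -0.07 (SE 0.0352). In HOM against HET the calls on these lists were Fgf21, Gdf15 and Chac1.

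**Figure D5:**
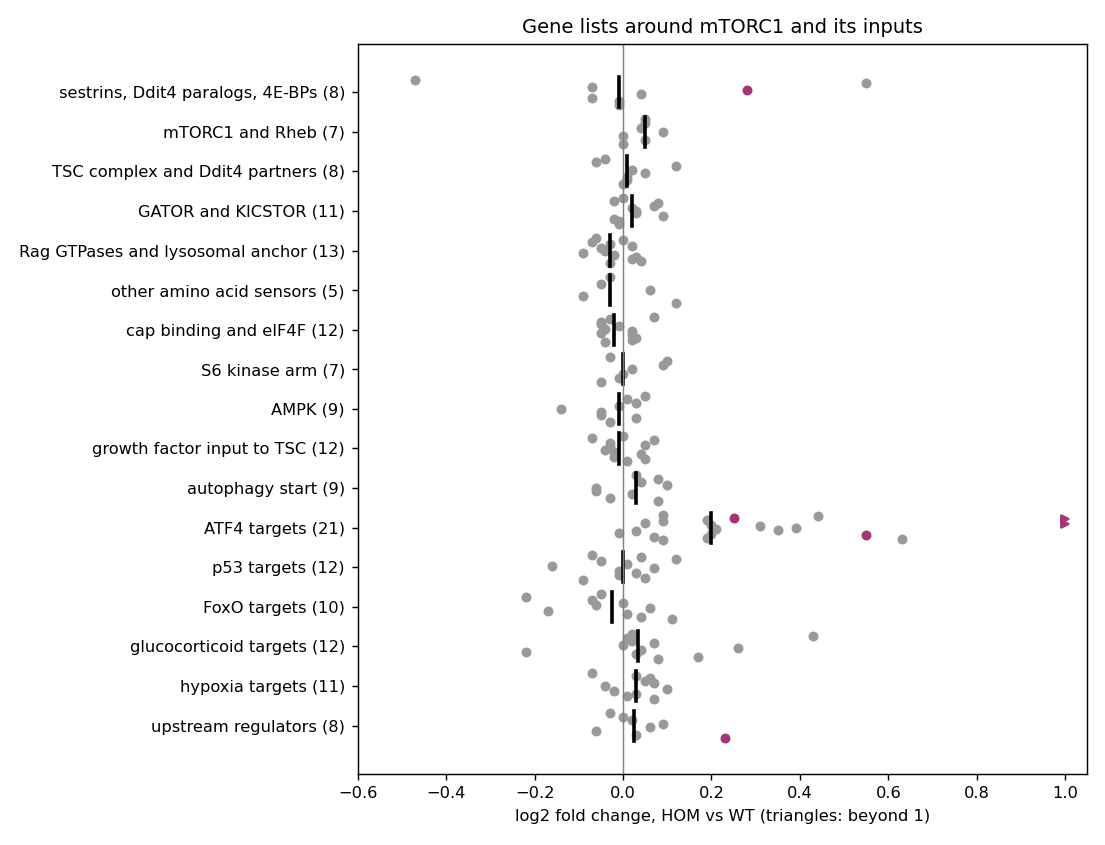
Log2 fold change in HOM against WT (horizontal axis) of each tested gene of the lists (vertical axis, number of genes in parentheses), with black bars at list medians, called genes in purple and 2 genes beyond 1, Fgf21 and Gdf15, drawn as triangles. Most lists centre on 0, and the ATF4 targets centre on 0.20. The lists were chosen with earlier results of these data known.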

How the data were processed

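Polyadenylated RNA from spinal cord was sequenced as paired ends, and the authors deposited 1 RSEM gene table per library with expected counts, TPM, FPKM and effective lengths, per the file headers. Bowtie2 2.2.0 and RSEM 1.2.12 are listed in the submitters' processing notes. The sources used here do not give build, annotation or strand setting. Expected counts, as the authors deposited them, divide multi-mapped reads between genes. The authors' deposited TPM values, scaled per transcript length, served for levels between genes, paralog shares and an alternative test; the authors' deposited FPKM values were not used.

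Symbols were matched by Ensembl ID for 37607 of 38924 genes, and Kics2 of the pathway lists had no match. Expected counts were rounded, filtered with filterByExpr (16974 genes), scaled by TMM and fitted over all 22 libraries with edgeR 4.0.16 (robust quasi-likelihood) in R 4.3.3, with Benjamini-Hochberg adjustment over all genes and a threshold of 0.05. SEs were derived from F statistics. CPM uses the TMM-adjusted total of tested genes. Paralog shares were compared by exact permutation with scipy 1.17.1. Alternatives used DESeq2 1.42.0 and limma 3.58.1. From each pathway list, called genes or else the gene with the smallest p were named, and for each member the 3 genes of at least 5 CPM most like it (0.5 CPM added before the log). The members and lists were chosen with earlier results of these data known. Promoter sequences are from RefSeq (GRCm38.p6).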

Additional observations from a re-analysis of the deposited data

Results flagged for a closer look

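Of 24 sets of libraries (8 genes in 3 genotypes), 3 held a library whose gap to its nearest neighbour was large for the range of its group; chance alone gives about 1 in 20. Sesn1 was at 51.8 CPM in HOM 3, with the next HOM library at 40.8. Eif4ebp1 was at 2.71 CPM in HOM 3, with the next at 1.92. Eif4ebp1 was at 0.85 CPM in HET 1, below the next HET library at 1.18. HOM 3 also carried the Schwann cell, fibroblast and blood transcripts described above, and their part in its Sesn1 and Eif4ebp1 values was not tested.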

How the results depend on the processing

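The Sesn2 difference between HOM and WT stayed positive in every alternative, from 0.248 to 0.301 with 1 library left out. It missed the threshold with limma-trend on log2(TPM + 1) (0.29) and log2(TPM + 0.1) (0.313). The same held with the 2 genotypes alone (0.278) and with title prefixes 40411 and 40412 alone (0.337). In each of these settings the number of members called fell from 1 to 0. The last pair of settings also held fewer libraries, and the cause of the lost calls was not tested. For the allele trend the number of members called was 0 under both TPM fits, with the prefix as a covariate and with prefixes 40411 and 40412 alone. In HOM against HET 1 member was called with DESeq2. With 1 library left out, members called ran from 0 to 1 in these 3 contrasts. Genes called in HOM against WT were 28 with DESeq2 (22 higher) and 8 with the 2 prefixes; in HOM against HET they were 76 with DESeq2 (35 higher), 11 under both TPM fits, 10 with the prefix as a covariate and 10 to 39 with 1 library left out.

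None of the differences whose sign turned was called in any setting. In HOM against WT these were Sesn1 (0.028 and 0.029 with TPM, 0.027 with the prefix, -0.066 to 0.064 with 1 library left out), Sesn3 (0.023 and 0.024 with TPM, 0.006 with the Xist level as a covariate, -0.054 to 0.019) and Ddit4 (0.039 with the prefix, 0.014 with the 2 prefixes). In HET against WT these were Sesn1 (0.025 and 0.026 with TPM, -0.067 to 0.046), Sesn3 (0.006 with TPM and with Xist, -0.081 to 0.017), Ddit4 (-0.018 to 0.194) and Ddit4l (-0.027 with the 2 prefixes, -0.027 to 0.071). In HOM against HET these were Sesn1 (-0.041 to 0.039), Sesn3 (-0.022 with the prefix, -0.001 with Xist, -0.002 with the 2 prefixes, -0.029 to 0.069), Ddit4 (0.023 with the prefix), Ddit4l (0.011 with the 2 prefixes) and Eif4ebp2 (0.007 with the prefix, -0.034 to 0.007). Paralog shares turned in HET against WT for Eif4ebp1 (-0.241 to 0.475 points), Sesn1 (-0.67 to 0.676) and Sesn3 (-1.34 to 0.34) with 1 library left out. Eif4ebp3 had no value under the filter of 1 CPM or, in HOM against WT, with the 2 genotypes alone, where it did not pass the filter. No paired analysis was possible because the replicate numbers follow deposition order and pair nothing. Depth limits Eif4ebp1 and Eif4ebp3 most.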
